A study of Mus musculus with 18 samples.

Results

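The rostral and the middle parts of the embryonic mouse neocortex were compared on 6 arrays with 2 dyes, out of 18 arrays in the series, and these 6 were the arrays on which a rostral pool and a middle pool were hybridised together. They were chosen by the names of the pools in their channels and not by any measured value. The tissue was E13.5 neocortex of MF1 mice, cut into rostral, middle and caudal parts. All pools shared strain and age, and no treatment or allele is named for any of them. The tissue was taken from 4 embryos. Whether pools of a region were from different embryos is not recorded in the labels, and p-values therefore measure the spread among pools, some of which may be technical. That spread also holds the error of the arrays. The 3 rostral and 3 middle pools formed a closed ring. Each pool was on 2 of the 6 arrays, in Cy5 on 1 and in Cy3 on the other, and 0 arrays joined a rostral and a middle pool of the same number.

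At this age the cortical wall holds dividing radial glia, their intermediate progenitor daughters and the first layers of neurons. Position along the rostrocaudal axis is known to be set by signals from patterning centres, with FGF ligands secreted at the rostral midline and WNT and BMP ligands secreted by the caudomedial hem. Progenitors read these signals into graded transcription factors such as Nr2f1 and Emx2, which are known as high caudally, and Pax6, known as high rostrally. Neurogenesis also runs along this axis, so that regions taken at the same age can differ in maturity as well as in identity.

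Each value is a log2 ratio within an array, set to 0 at the array's median and turned so that a positive number means more RNA in the rostral pool. The ratios were read as Cy5 over Cy3. This direction is likely and not stated in the labels, and with the opposite reading every sign below would turn. Array values are given in a fixed order: with rostral in Cy5, rostral pool 1 against middle 3, rostral 3 against middle 2 and rostral 2 against middle 1; with middle in Cy5, middle 3 against rostral 2, middle 1 against rostral 3 and middle 2 against rostral 1. Ratios hold no level of their own, so the labelled tissue could not be checked by how strongly its markers were expressed. In bulk tissue, fewer cells of a type and less RNA per cell cannot be told apart.

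The direct comparison placed 0 of 15842 probes past the threshold, an adjusted p under 0.05 in limma fitted to the 6 pool values, a background of 0%. The lowest limma adjusted p was 0.999. An unadjusted p under 0.05 was reached by 453 probes, 180 of them higher in rostral pools (1.14% of those tested) and 273 higher in middle pools (1.72%). Together these are 2.86%, fewer than a threshold of 0.05 gives by itself where nothing differs. Pool contrasts and the dye term use up the 6 arrays, so the pool values carry all array error. Where that error is large the pool fit is strict, and 0 passing does not show that the regions are alike. A fit that took the 6 arrays as independent, although they share pools, also called 0. It put 1933 probes at an unadjusted p under 0.05, and its lowest limma adjusted p was 0.166. The genes below are therefore described by their values, and no single gene passed. Differences had a median of -0.01, an SD across probes of 0.23 and an interquartile range from -0.10 to 0.09, and the median SD among pools of a region was 0.16. The 3 rostral pools all lay above the 3 middle pools for 506 probes (3.19%) and all below them for 870 (5.49%).

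The dye weighed as much as the region in single arrays. The dye term, the part of a ratio that followed Cy5 and not the tissue, had an SD across probes of 0.31 and was larger in size than the regional difference for 8661 probes (54.7%). Array error enters both terms alike, so this share does not set dye apart from noise. Before dye removal the orientations gave opposite signs for 8649 probes (54.6%). This is nearly the same count by construction, since signs are opposite where the dye term is the larger. All 6 arrays lay on 1 side for 1348 probes (8.51%), of which 503 were rostral and 845 middle. Hao1, a liver peroxisomal oxidase, is an example of orientations with opposite signs. Its arrays read -1.76, -3.13 and -3.79 with rostral in Cy5 and 3.24, 1.81 and 2.40 with middle in Cy5, which left -0.20 ± 0.44 (SE, n = 3 pools per region) once the orientations were averaged. Prl7a1, a placental hormone of the prolactin family, had 1.64 ± 0.41, but it read 4.30, 2.50 and 3.94 in 1 orientation and -0.10, -0.01 and -0.80 in the other. With dye removed, each array's correlation to the other 5 arrays averaged was between 0.08 and 0.25 over probes, which are not independent replicates. Dye removal makes the means of both orientations equal, so part of this correlation is built in. Before removal, each array's correlation with the mean of the others of its orientation was 0.15 to 0.35. With the mean of the other orientation it was -0.27 to -0.11.

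**Figure D1:**
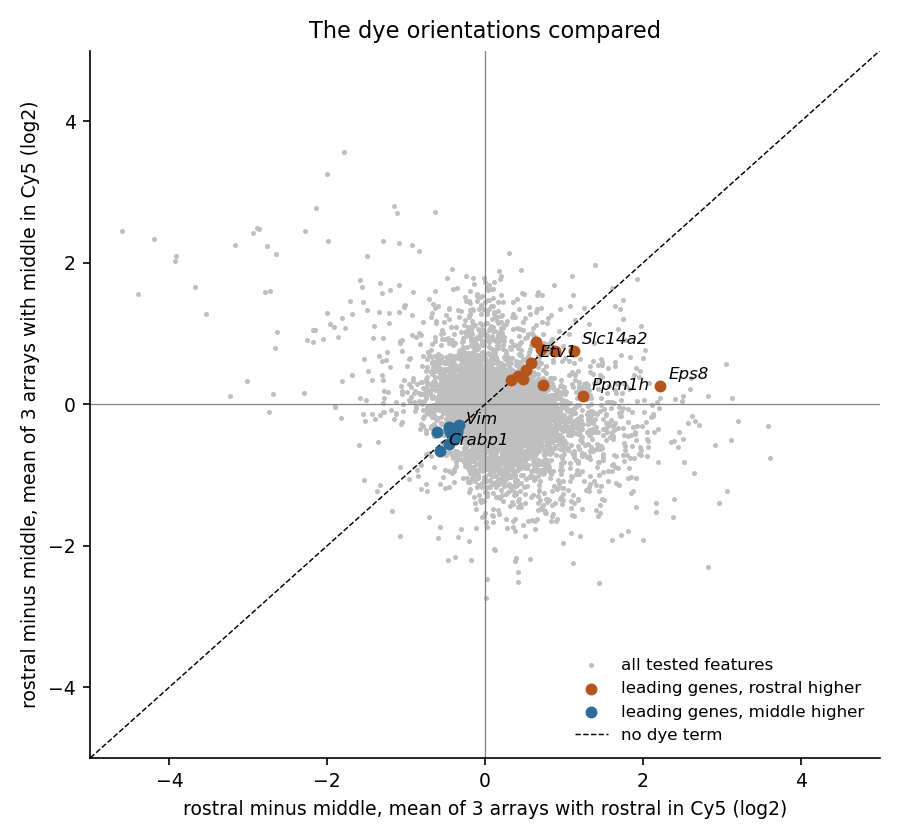
Each grey point is 1 of 15842 probes, placed by its rostral minus middle log2 difference in the 3 arrays with rostral in Cy5 (horizontal) and in the 3 arrays with middle in Cy5 (vertical), and coloured points are the 12 leading genes in each direction. Points off the dashed diagonal carry a dye term: Eps8 and Ppm1h lie far to the right of it, while Vim, Crabp1 and Etv1 lie close to it.

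Among genes higher in the rostral pools, the lowest p belonged to Slc14a2, which encodes a urea transporter best known from the kidney. Its arrays read 1.17, 0.94 and 1.27 with rostral in Cy5 and 0.84, 0.62 and 0.82 with middle in Cy5. All 6 were high in the rostral pool, the pools did not overlap (0.30 to 0.58 in rostral, -0.51 to -0.44 in middle), and the difference was 0.94 ± 0.10, a 1.92-fold ratio (limma unadjusted p = 0.000113). As3mt, which methylates arsenic, followed with 0.54, 0.83 and 0.74, then 0.71, 0.77 and 0.88, and a difference of 0.75 ± 0.09. Scrn1, secernin, a protein linked to regulated exocytosis, had 0.65, 0.70 and 1.31, then 0.68, 0.95 and 0.62, and a difference of 0.82 ± 0.15. Its highest array was the one that joined rostral pool 2 to middle pool 1. The values of these pools (0.54 and -0.70) are solved from the same arrays and restate this.

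Etv1, an ETS transcription factor known as a target of FGF signalling, was also among the 12. It read 0.65, 0.71 and 0.40 with rostral in Cy5 and 0.65, 0.57 and 0.54 with middle in Cy5. The dye term was 0.00, the pools did not overlap, and the difference was 0.59 ± 0.10. The other leading rostral genes were of mixed function. Gnaq, a G protein alpha subunit, had 0.76 ± 0.12 on its leading probe and -0.01 ± 0.21 and 0.08 ± 0.07 on its other 2 probes, so its probes disagreed. Pantr2, a long noncoding RNA transcribed beside the POU gene Pou3f3, had 0.42 ± 0.07, Zfp536, a zinc finger protein, 0.41 ± 0.07, and Klf3, a Kruppel-like repressor, 0.33 ± 0.06. Acot11, an acyl-CoA thioesterase, had 0.50 ± 0.08 and Rwdd3, which enhances SUMO conjugation, 0.50 ± 0.10.

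For 4 of the 12 leading rostral genes, Slc14a2, Ppm1h, Acot11 and Eps8, the 3 arrays of 1 orientation all lay above the 3 of the other, with more rostral excess while the rostral pool carried Cy5. Ppm1h, a protein phosphatase, read 1.36, 1.17 and 1.18 with rostral in Cy5 but -0.04, 0.05 and 0.33 with middle in Cy5, for a difference of 0.68 ± 0.10 beside a dye term of 0.56. Eps8, an actin regulator downstream of growth factor receptors, read 1.57, 2.21 and 2.87 against 0.29, 0.50 and -0.01, for 1.24 ± 0.23 beside a dye term of 0.98. Acot11 read 0.70, 0.83 and 0.66 against 0.28, 0.38 and 0.16, beside a dye term of 0.23. The gap was narrowest for Slc14a2, whose dye term was 0.18. Of the 12 leading middle genes, Nfix was the 1 whose orientations did not overlap, with a dye term of -0.06.

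**Figure D2:**
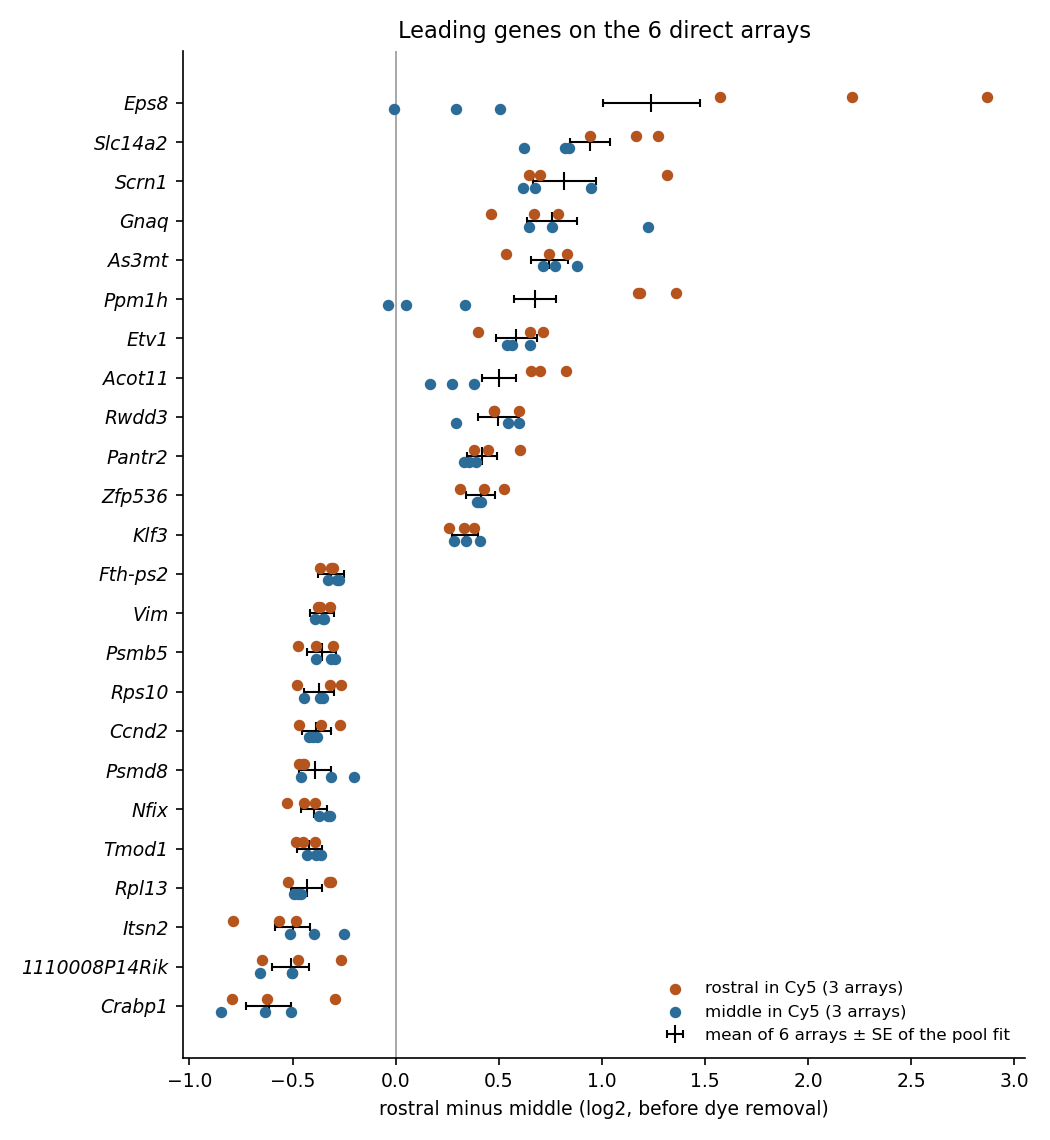
Rostral minus middle log2 values of the 24 leading genes, 12 per direction, on each of the 6 arrays before dye removal, coloured by the dye of the rostral pool, with the mean and the standard error of the pool fit in black. Most genes have both colours together, such as Vim between -0.39 and -0.32 on all arrays, while Eps8, Ppm1h and Acot11 have them apart.

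Among genes higher in the middle pools, Tmod1, which caps the pointed ends of actin filaments, had the lowest p. Its 6 arrays were narrow, at -0.45, -0.48 and -0.39, then -0.36, -0.38 and -0.43, and the difference was -0.42 ± 0.06. Vim, the intermediate filament vimentin of radial glia and mesenchyme, read -0.32, -0.37 and -0.38, then -0.35, -0.39 and -0.35. Its pools lay at -0.19 to -0.16 in rostral and 0.16 to 0.20 in middle, and the difference was -0.36 ± 0.06, a 1.28-fold ratio towards middle. Crabp1, a cytoplasmic binding protein for retinoic acid, had the largest size among the 12 leading middle genes. It read -0.29, -0.79 and -0.62, then -0.51, -0.84 and -0.63, and differed by -0.62 ± 0.11, a 1.53-fold ratio. Its smallest array value joined rostral pool 1 to middle pool 3. The values of these pools (-0.18 and 0.16) are solved from the same arrays and restate this.

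The remaining leading middle genes included regulators of neural progenitors and parts of the protein machinery. Nfix, a nuclear factor I protein that promotes differentiation of radial glia, had -0.40 ± 0.06 and lay below 0 on 6 of 6 arrays. Ccnd2, cyclin D2, had -0.38 ± 0.07 on the probe that led and 0.28 ± 0.11 on another, each with 1 sign on 6 of 6 arrays, so the direction for this gene depended on the probe. Rpl13 (-0.43 ± 0.07) and Rps10 (-0.37 ± 0.07) are ribosomal proteins, and Psmb5 (-0.36 ± 0.07) and Psmd8 (-0.39 ± 0.08) are proteasome subunits. Itsn2, an endocytic scaffold, had -0.50 ± 0.08 and 1110008P14Rik had -0.51 ± 0.09. Fth-ps2 (-0.31 ± 0.06) is a ferritin heavy chain pseudogene, whose probe could also bind RNA of its parent gene.

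As genes were ranked by p, small and even differences came before large and uneven ones. Differences above 1 in size were found for 108 probes, 78 rostral and 30 middle, and the largest had wide errors. Trib1, a pseudokinase, had 1.85 ± 1.04, from array values between 0.14 and 4.99, and 0.81 without rostral pool 3. Ifitm7, of the interferon-induced transmembrane family, had 1.69 ± 1.10, and 0.60 without rostral pool 2. On the middle side, Igkv13-82, an immunoglobulin light chain segment, had -1.56 ± 0.90, and -0.89 without rostral pool 2.

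Etv1, Nr2f1 and Vim are an FGF-responsive, an areal and a radial glial gene of the comparison. They do not speak for these groups, whose members differed in sign. Their promoters are shown here. Each is the 250 bases before the first RefSeq start of the gene (build GRCm38.p6), 5′ to 3′ on the gene's strand, at chr12:38779832-38780081 on the plus strand, chr13:78198874-78199123 on the minus strand and chr2:13574061-13574310 on the plus strand, with matches to the searched motifs in capitals.
Etv1: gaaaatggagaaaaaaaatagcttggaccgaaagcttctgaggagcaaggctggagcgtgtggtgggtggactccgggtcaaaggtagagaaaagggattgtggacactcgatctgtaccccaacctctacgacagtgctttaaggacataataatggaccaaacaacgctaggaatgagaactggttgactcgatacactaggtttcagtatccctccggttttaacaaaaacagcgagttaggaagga
Nr2f1: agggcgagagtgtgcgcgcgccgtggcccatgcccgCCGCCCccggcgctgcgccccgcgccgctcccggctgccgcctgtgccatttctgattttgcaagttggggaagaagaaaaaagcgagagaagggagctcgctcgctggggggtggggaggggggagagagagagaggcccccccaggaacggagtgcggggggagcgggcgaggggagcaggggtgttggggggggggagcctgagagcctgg
Vim: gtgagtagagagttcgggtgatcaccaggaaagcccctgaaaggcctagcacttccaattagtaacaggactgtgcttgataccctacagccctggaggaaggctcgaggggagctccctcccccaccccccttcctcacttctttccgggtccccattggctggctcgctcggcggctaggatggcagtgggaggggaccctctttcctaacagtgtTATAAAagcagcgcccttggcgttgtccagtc
Nr2f1 held a GC box on the minus strand at -214 and Vim a TATA match at -32, counted from the start, and Etv1 had no match in this window. Etv1 and Nr2f1 each have a second RefSeq promoter, not shown. That of Etv1 held a TATA match on the minus strand at -114, and that of Nr2f1 held none. The counts below take every promoter of a gene.

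Of the 12 leading genes in each direction, 10 had a RefSeq promoter, here 250 bases before to 50 after the start. The motifs searched on both strands were the ETS core CCGGAAG, the nuclear receptor half-site AGGTCA, the GC box GGGCGG and the TATA letters TATAAA, which do not contain each other. The ETS letters were in 0 of 10 rostral and 2 of 10 middle genes (9.93% of all genes with such a window), the half-site in 1 and 1 (18.1%), the GC box in 5 and 8 (38.2%) and the TATA letters in 1 and 1 (15.7%). These are matches of letters and not shown to be sites.

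The transcription factors that pattern the cortex lay mostly higher in middle or near 0. Nr2f1, the orphan nuclear receptor COUP-TFI, read -0.95, -0.72 and -0.47, then -0.56, -0.97 and -0.52. All 6 arrays were lower in the rostral pool and the pools did not overlap (-0.58 to -0.05 in rostral, 0.12 to 0.52 in middle), for a difference of -0.70 ± 0.18, a 1.62-fold ratio (limma unadjusted p = 0.00915). Its other probe had -0.31 ± 0.13. Lhx2, a LIM homeodomain factor needed for cortical identity, had -0.33 ± 0.09 with pools that did not overlap. Emx2 had -0.31 ± 0.13 with all 6 arrays below 0, but its pools overlapped, since rostral pool 2 (-0.01) stood above middle pool 2 (-0.02). Pax6 had 0.06 ± 0.07 and -0.00 ± 0.08 on its 2 probes, within the spread of its pools.

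Genes listed as areal markers, known for uneven expression across cortical areas, numbered 15 of 20 after the filter, with 4 above 0 and 11 below and a median of -0.08, beside -0.01 and 46.8% above 0 over all 11811 genes tested. The sign of every list median here and below is relative to the array medians: without centring, or centred on the Gapdh control spots, the median of 1 list, the cytosolic ribosomal genes, is below 0, and the order of the lists is unchanged. Tenm2, a teneurin adhesion protein, had -0.24 ± 0.16 with pools that overlapped, and it moved to -0.10 without rostral pool 3 and to -0.38 without rostral pool 1. Its other probes had -0.42 ± 0.14 and -0.07 ± 0.13. Crym, a thyroid hormone binding protein, had -0.21 ± 0.10. Of genes described in textbooks as rostral, 5 of 10 tested lay above 0 (median 0.01), and of those described as caudal, 9 of 12 lay below 0 (median -0.06). Pools did not overlap for 1 of the 12 caudal genes, towards middle (8.33%, beside 9.25% of all tested genes). Their median on single arrays ran from -0.17 to 0.07, and from the other 12 arrays it was -0.00.

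The FGF genes did not lie to 1 side. Of 22 tested, 7 lay above 0 and 15 below, with a median of -0.09, and 5 of them had pools that did not overlap, 2 rostral and 3 middle (22.7%, beside 9.25% of all tested genes in either direction, 378 rostral and 714 middle). The list median was above 0 on 3 of 6 arrays and ran from -0.205 to 0.1265. It was -0.10, -0.03 and 0.06 in rostral pools 1, 2 and 3, and 0.04, 0.01 and -0.02 in middle pools 1, 2 and 3. Of the ligands, Fgf8, the organiser signal of the rostral midline, had -0.17 ± 0.08 and Fgf17 -0.12 ± 0.07. The receptors Fgfr1, Fgfr2 and Fgfr3 had -0.09 ± 0.08, -0.10 ± 0.06 and -0.25 ± 0.18, and that of Fgfr3 was -0.08 without rostral pool 1 and -0.40 without rostral pool 2. Of the feedback inhibitors and targets, Spry2 read 0.35, 0.32 and 0.55, then 0.30, 0.11 and 0.63, and had 0.38 ± 0.15, with rostral pool 3 (-0.06) inside the range of the middle pools. Etv4 had 0.04 ± 0.06, and Etv5 had 0.18 ± 0.08 on 1 probe and -0.16 ± 0.07 on the other. Of these 3 related ETS factors, Etv1, which had a single probe, lay above 0 on 6 of 6 arrays. The Etv5 probe at 0.18 also lay above 0 on 6 of 6, and the other Etv5 probe on 1 of 6.

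WNT and BMP genes of the midline centred on 0, with 18 of 43 above, 25 below and a median of -0.01. Wnt8b, a WNT ligand of the hem, had 0.55 ± 0.23, but read 1.27, 0.95 and 0.67 with rostral in Cy5 against 0.10, 0.50 and -0.16, and its pools overlapped. Wls, the carrier that WNT ligands need for secretion, had -0.28 ± 0.10 with pools that did not overlap. Sfrp1, a secreted WNT antagonist, had 0.32 ± 0.20 and 0.32 ± 0.11 on its 2 probes, the former at 0.13 without rostral pool 2. Axin2 and Lef1, readouts of canonical WNT signalling, had -0.13 ± 0.12 and -0.05 ± 0.08.

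**Figure D3:**
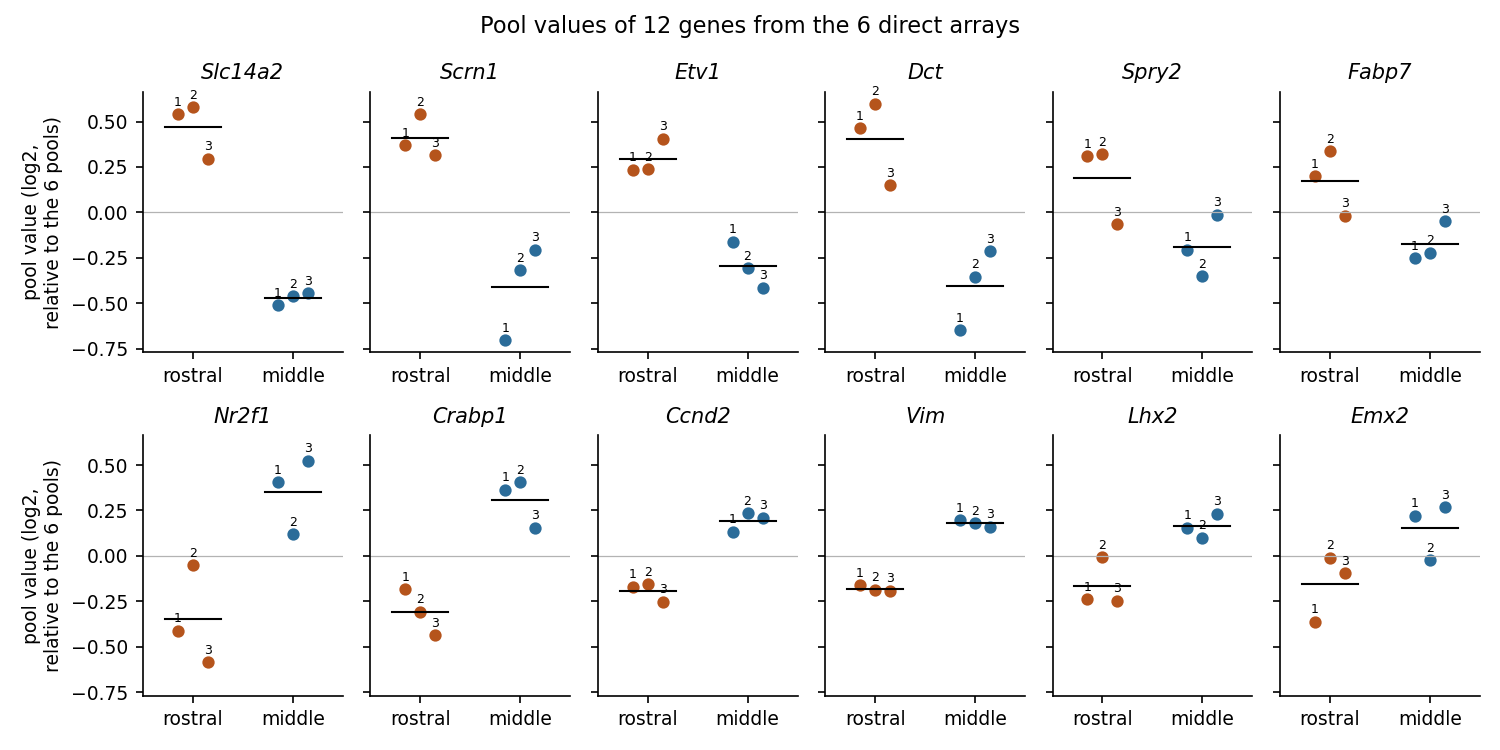
Pool values of 12 genes in log2 units relative to the mean of the 6 pools, by least squares over the 6 direct arrays, with the pool number at each point and the mean of each region as a line. The rostral and middle pools are apart for Slc14a2, Scrn1, Etv1, Dct, Nr2f1, Crabp1, Ccnd2, Vim and Lhx2, and Fabp7 by a narrow gap, and they overlap for Spry2 and Emx2.

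Radial glial genes differed in both directions. Of 25 tested, 11 lay above 0 and 14 below, with a median of -0.01, and pools did not overlap for 3 in each direction (24%, beside 9.25% of all tested genes). Vim and Lhx2 were higher in middle, as given above. Fabp7, the brain lipid binding protein, read 0.32, 0.28 and 0.66, then 0.31, 0.16 and 0.35, and had 0.34 ± 0.12. Slc1a3, the glial glutamate transporter GLAST, had 0.29 ± 0.11 and 0.26 ± 0.14 on its 2 probes measured on all arrays, with 6 of 6 arrays above 0 on each. Markers of 1 cell type thus gave opposite signs in the same arrays.

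Notch pathway genes, known to keep progenitors undifferentiated, had 6 of 21 above 0 and a median of -0.06. From the arrays with a caudal pool their median was 0.03, with the sign turned, beside 0.01 for all tested genes. Hey1 had -0.23 ± 0.08 and Hes5 -0.47 ± 0.22, both effectors of the pathway. Hes5 was at -0.31 without middle pool 2 and at -0.63 without rostral pool 3. Numb, an inhibitor, had 0.18 ± 0.08. Of intermediate progenitor genes, 5 of 16 lay above 0, with a median of -0.07. Eomes, the transcription factor that defines these cells, had -0.05 ± 0.15, Sstr2, a somatostatin receptor, -0.20 ± 0.06, Gadd45g, a growth arrest gene, -0.17 ± 0.06 and Btg2, an antiproliferative factor, 0.27 ± 0.10. Cortical neuron genes were even, with 14 of 30 above 0 and a median of -0.02. Syt1, a synaptic vesicle protein, had 0.26 ± 0.08, Fezf2, a deep-layer regulator, -0.22 ± 0.07, Tubb3, neuronal tubulin, -0.18 ± 0.07, and Tbr1 0.12 ± 0.18. Of 7 Cajal-Retzius genes 2 lay above 0 (median -0.09), and Reln, their secreted product, had -0.02 ± 0.08 and 0.05 ± 0.16 on its 2 probes. The median of Cajal-Retzius genes also turned, to 0.02 from the arrays with a caudal pool. Those of intermediate progenitor and cortical neuron genes kept their sign there, at -0.05 and -0.01.

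Of 3 lists of cell cycle genes, DNA replication and mitotic genes had medians slightly above 0. DNA replication genes had 23 of 40 above 0 and a median of 0.05, and mitotic genes 29 of 43 and 0.03. The mitotic genes with the lowest p went the other way, Ube2c, a ubiquitin conjugase of the anaphase complex, at -0.26 ± 0.07 and Cenpa, the centromeric histone, at -0.25 ± 0.09. Cyclins of the D type and cell cycle inhibitors had 7 of 18 above 0 (median -0.04), and Ccnd1 had -0.10 ± 0.14.

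Genes of adhesion and axon guidance lay close to the median of all genes. Eph receptors and ephrins had 8 of 17 above 0, a median of -0.00 and pools that did not overlap for 0 (0%, beside 9.25% of all tested genes). Cadherins had 10 of 17 above 0 (median 0.02), led by Cdh10 at 0.44 ± 0.12, and guidance genes 17 of 31 (median 0.02), with Sema3c at 0.18 ± 0.07. POU and SOX factors had 9 of 16 above 0 (median 0.00), with Pou3f4 at 0.32 ± 0.10. Retinoid genes had 5 of 13 above 0 (median -0.05). From the arrays with a caudal pool the medians were 0.07 for retinoid genes, 0.07 for guidance genes and 0.04 for cadherins. They were 0.06 for Eph receptors and ephrins and -0.01 for POU and SOX factors. Crabp1 stood apart from its paralogue Crabp2, which had 0.19 ± 0.12.

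Cytosolic ribosomal protein genes had the lowest median of the 32 lists. Of 65 tested, 64 were below 0, with a median of -0.17 and a range from -0.46 to 0.05, and pools did not overlap for 20 towards middle and 0 towards rostral (30.8%, beside 9.25% of all tested genes in either direction). The exception was Rpl7l1, a relative of Rpl7, at 0.05 ± 0.11. After Rpl13 and Rps10 the lowest p belonged to Rpl29 at -0.30 ± 0.07. The median over the list was -0.25 in rostral pool 3, against -0.00 and 0.02 in the other rostral pools and 0.04, 0.06 and 0.14 in the middle pools. Without rostral pool 3 the difference was -0.07, and without any other pool it lay between -0.20 and -0.13. Without centring the median was -0.05 with 32.3% of the genes above 0, and centred on the Gapdh control spots it was -0.01 with 46.2% above 0. What part overall scaling or this pool had was not tested.

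Genes of the mitochondrial ribosome and of oxidative phosphorylation were also low in rostral pool 3. Mitochondrial ribosomal genes had 24 of 69 above 0 (median -0.05), and subunits of oxidative phosphorylation 29 of 83 (median -0.04). Atp5d, an ATP synthase subunit, had -0.36 ± 0.07 and Mrpl4 -0.30 ± 0.07. In rostral pool 3 the oxidative phosphorylation genes had a median of -0.22, and without that pool the differences of these lists were 0.02 and 0.05, with the sign turned. Glycolytic genes had 5 of 16 above 0 and a median of -0.07, and their median lay below 0 on 6 of 6 arrays. Their median was -0.05 in rostral pool 3 and -0.04 in rostral pool 1, and without rostral pool 3 their difference was -0.08. Gapdh itself had -0.21 ± 0.07 and Pgam1 -0.23 ± 0.07. The median of the 231 Gapdh control spots also lay below 0 on each array, from -0.30 to -0.02. By pool, the medians of these spots overlapped, with rostral pool 2 (0.06) above middle pool 2 (-0.01).

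**Figure D4:**
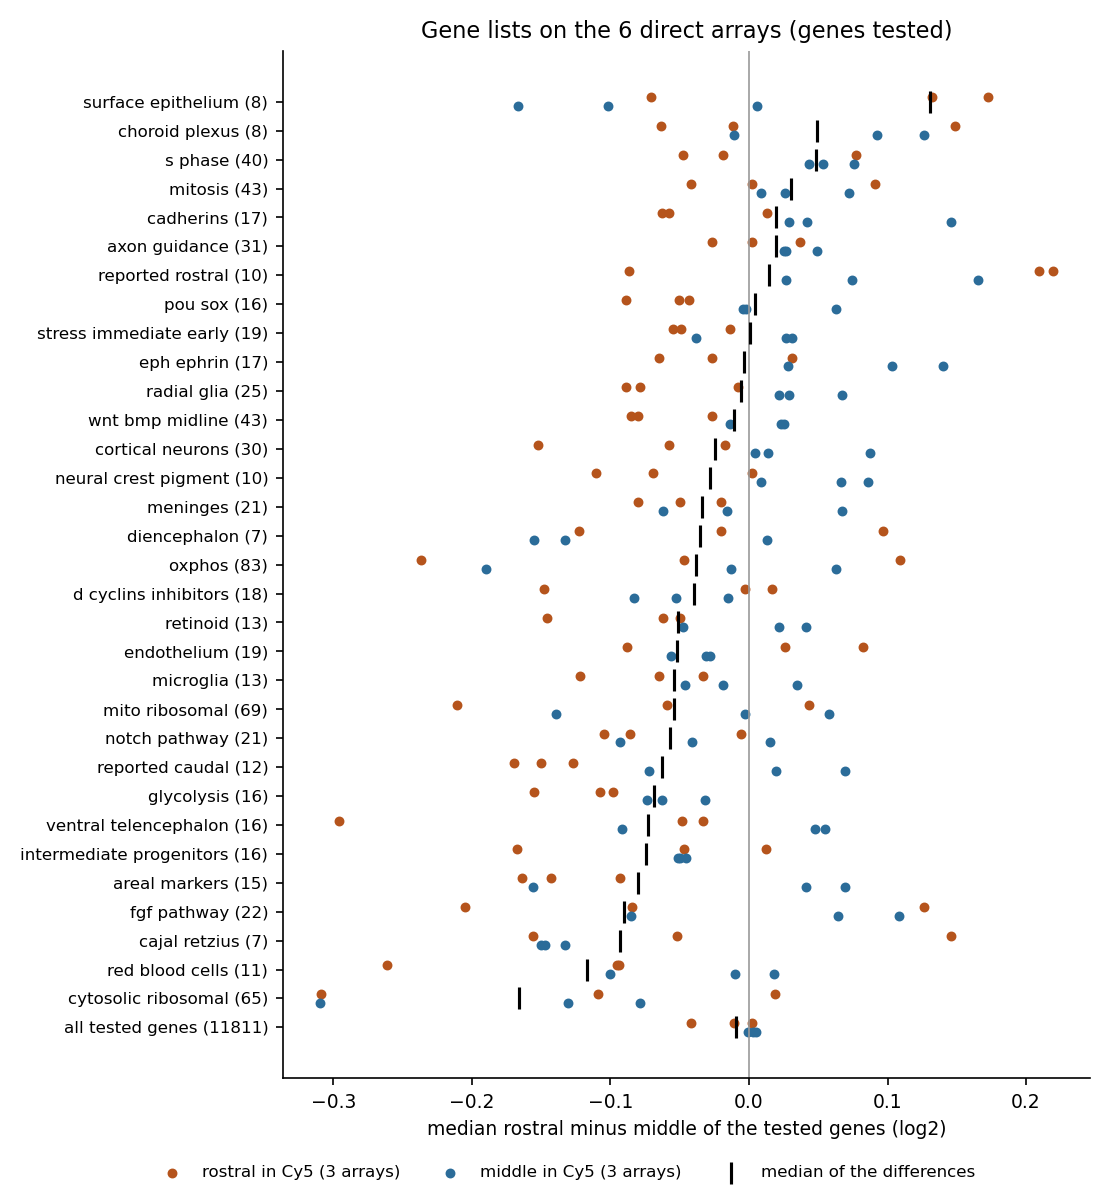
Median rostral minus middle log2 value of each gene list, with the number of genes tested in brackets, on each of the 6 arrays before dye removal (points, coloured by orientation) and over the dye-corrected differences (black bars). Cytosolic ribosomal genes have the lowest bar at -0.17, and all tested genes lie at -0.01.

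Markers of other cells that the dissected tissue could hold were near the median of all genes for most lists. Red blood cell genes had 2 of 11 above 0 and a median of -0.12, with Hbb-y at -0.32 ± 0.13 and Hbb-bh1 at -0.33 ± 0.16, both embryonic globins and both at -0.18 without rostral pool 3, and the list had a median of -0.24 in that pool. This is the pool that was also low for ribosomal genes, and its part in the results was not tested. Meningeal genes had 8 of 21 above 0 (median -0.03), with Col6a2, a collagen chain, at 0.41 ± 0.14 and Cxcl12, a meningeal chemokine, at -0.27 ± 0.10. Endothelial genes had 5 of 19 above 0 (median -0.05, Cldn5 -0.20 ± 0.08) and microglial genes 3 of 13 (median -0.05). Ventral telencephalic genes had 6 of 16 above 0 (median -0.07, Gsx2 -0.22 ± 0.09), choroid plexus genes 6 of 8 (median 0.05), diencephalic genes 3 of 7 (median -0.04, Irx1 -0.20 ± 0.06) and surface epithelial genes 5 of 8 (median 0.13). Stress and immediate early genes had 10 of 19 above 0 (median 0.00), with Jun at -0.45 ± 0.15 and Hspa5, an endoplasmic reticulum chaperone, at -0.19 ± 0.06.

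Dct, dopachrome tautomerase of the melanin pathway, read 0.62, 0.45 and 1.19, then 0.87, 0.85 and 0.87, and had 0.81 ± 0.17 with pools that did not overlap. The other pigment cell genes did not go with it: 3 of 10 lay above 0 in all, with a median of -0.03. Tyr had -0.17 ± 0.07, Tyrp1 -0.00 ± 0.11, Pmel -0.06 ± 0.10 and Mitf -0.05 ± 0.16. The next highest of the list after Dct was Gpnmb, a melanosomal glycoprotein, at 0.06 ± 0.07.

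The other 12 arrays of the series join the same rostral and middle pools to caudal pools and give an indirect value. As they share these pools, they are set beside the direct values with no test. Etv1 had 0.59 ± 0.10 directly and 0.59 ± 0.15 indirectly, Vim -0.36 ± 0.06 and -0.36 ± 0.06, Crabp1 -0.62 ± 0.11 and -0.66 ± 0.08, and Scrn1 0.82 ± 0.15 and 0.92 ± 0.13. Slc14a2 had 0.94 ± 0.10 and 0.67 ± 0.10, and Nr2f1 -0.70 ± 0.18 and -0.49 ± 0.08. Eps8 had 1.24 ± 0.23 and 0.05 ± 0.68, Acot11 0.50 ± 0.08 and 0.17 ± 0.15, and Itsn2 -0.50 ± 0.08 and -0.19 ± 0.08. Of the patterning genes, Emx2 had -0.31 ± 0.13 and -0.06 ± 0.08, Wnt8b 0.55 ± 0.23 and 0.19 ± 0.13, and Spry2 0.38 ± 0.15 and 0.17 ± 0.10. Hes5 had -0.47 ± 0.22 and -0.08 ± 0.10. Of 96 named probes with both values and a direct value other than 0.00, the indirect value was within 1.5 times the direct one for 55, smaller by more with the same sign for 23, larger by more for 8, and at 0 or of opposite sign for 10. The probes of Ccnd2 kept their opposite signs, at -0.38 ± 0.07 and 0.29 ± 0.07 indirectly. Nhlh2, a Cajal-Retzius marker, had opposite signs, -0.41 ± 0.14 and 0.63 ± 0.42.

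**Figure D5:**
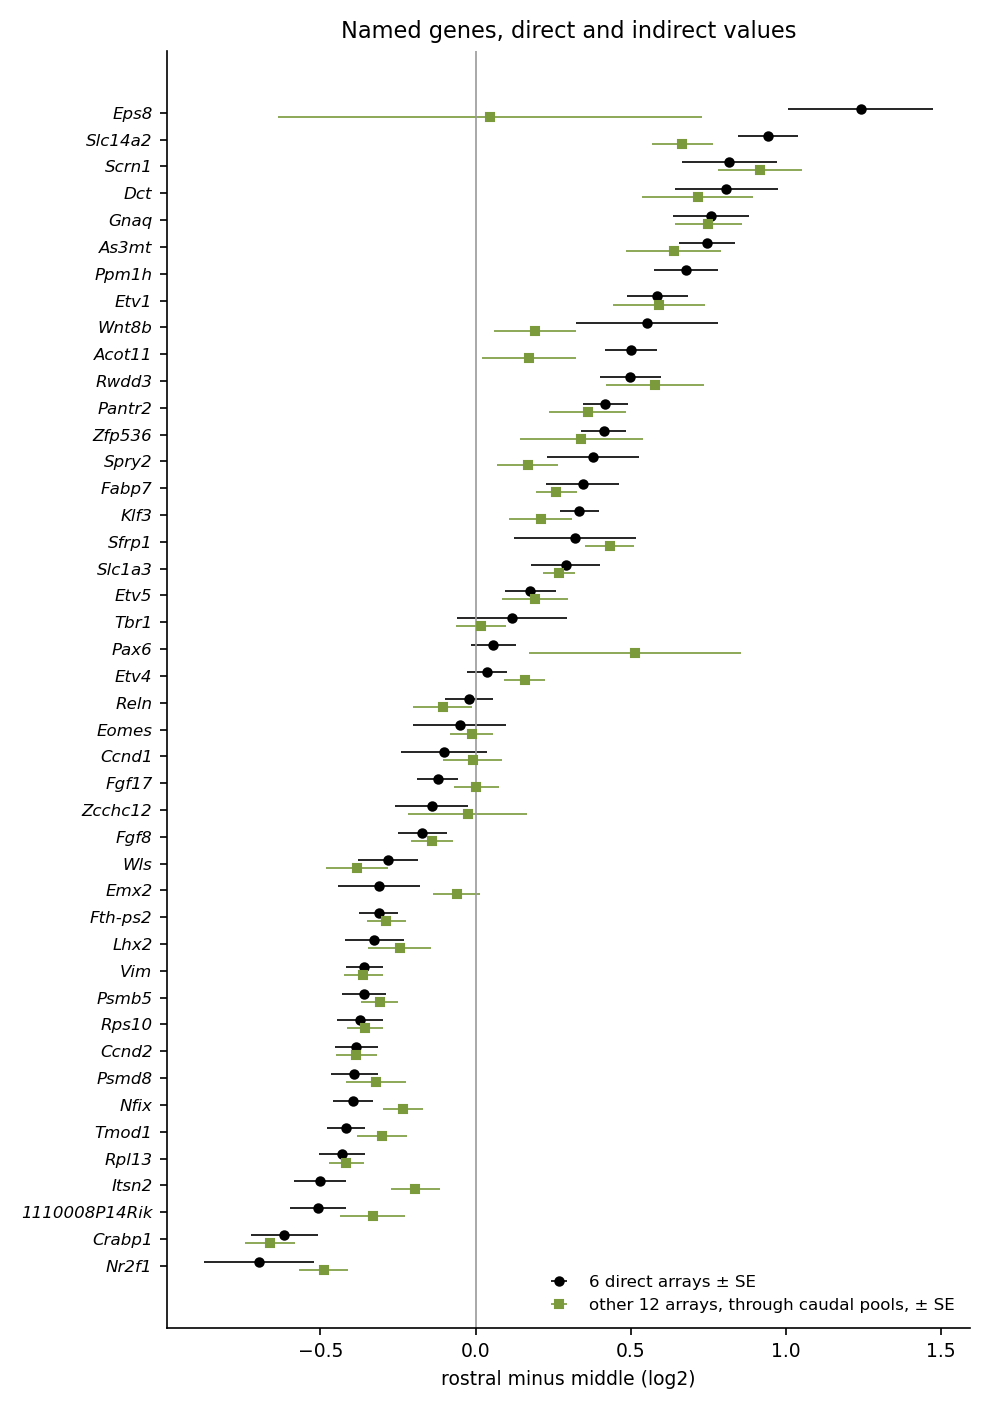
Rostral minus middle log2 difference with its standard error for the named genes, from the 6 direct arrays (black) and from the other 12 arrays through the caudal pools (green), sorted by the direct value. Vim and Etv1 have nearly the same value from both, and Eps8 has 1.24 directly and 0.05 with a wide error indirectly.

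Zcchc12, a zinc finger protein, had -0.14 ± 0.12 with overlapping pools. Sp8, a rostral zinc finger factor, was not analysed here.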

How the data were processed

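The authors deposited a table of log2 ratios for 21998 probes, with a column for each array. The log base was read from the values, whose highest is 16.61, log2 of a ratio capped at 100000, and whose next highest is 7.57. The sources used here do not name the scanner, the background correction or the normalization. RNA was extracted with Trizol, per the labels. The 6 arrays held 18765 to 20644 values and medians of -0.09 to 0.51, and the number of arrays limits the precision.

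Capped ratios were set to missing and each array was centred on its median. The dye term was removed as the mean of both orientations, and pool values were fitted by least squares. limma 3.58.1 (R 4.3.3, lmFit and eBayes) compared 3 rostral with 3 middle pools, two-sided, with 4 residual and 1.51 prior degrees of freedom and Benjamini-Hochberg adjustment over 15842 probes with values on all 6 arrays. It takes pool estimates as independent, although neighbours share an array. SE is that of this fit. The 232 Gapdh control spots were left out. Of the other 21766 probes, 16632 had 1 gene symbol, 139 several and 4995 are unnamed here, and 5924 had no value on 1 or more of the 6 arrays.

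Genes named were, per direction, the 12 of lowest p among those with pools apart and 6 dye-corrected values of 1 sign, up to 4 of lowest p per list, 28 fixed genes, and some chosen after their values were seen (Hao1, Prl7a1, Trib1, Ifitm7, Igkv13-82 for dye or size, and members named for their role). One probe, that with values on most arrays, stood for a gene. Members and lists were chosen with earlier results of these data known. The fit was tested on simulated data. Alternatives changed centring, capped values, the array filter, the dye term, the unit of replication, the replicate block and the arrays used.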

Additional observations from a re-analysis of the deposited data

Results flagged for a closer look

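The array that joined middle pool 2 in Cy5 to rostral pool 1 in Cy3 held 221 capped ratios, against 41 to 74 on the other 5 arrays. Its gap to the nearest array was 0.817 of the range, above Dixon's critical value for 6 values. It was the 1 of 30 items examined that stood apart in this way. Most items were the dye-corrected values of the 24 leading genes. These genes were chosen for pools apart and values of 1 sign, so they could hardly stand apart. No chance rate can therefore be set beside this count. The same array held the fewest values (18765) and the widest dye-corrected differences (SD across probes 0.62, against 0.35 to 0.52).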

How the results depend on the processing

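The count of probes past an adjusted p of 0.05 was 0 in each of 22 alternatives, of which 12 left out a pool or an array, so the range over these was 0 to 0. The lowest limma adjusted p over all of them was 0.101, without the array of rostral pool 2 and middle pool 1. With the pool number as a replicate block the count was 0, and 134 probes had an unadjusted p under 0.05 in place of 453. Whether the numbers pair the pools could not be checked: pools of the same number lie opposite each other in the ring of arrays, where the fit by itself gives them a negative correlation. Counts at an unadjusted p under 0.05 were 260 without centring, 1503 with Gapdh centring, 1105 from all 18 arrays, 915 from the other 12, and 1043 to 1813 with a pool or an array left out. Every difference moved up by 0.12 without centring and by 0.15 with Gapdh centring, so the share of probes above 0 was 79.1% and 84.9% in place of 47.2%. Of 32 list medians, 23 were below 0 as reported and 1, that of cytosolic ribosomal genes, on either other scale. Relative to the median of all genes, 21 lists lay below and 11 above whatever the centring. Of 525 values of the 24 leading genes over the alternatives, 0 changed sign, and of 2210 values over all 101 probes named, 76 did and 0 passed. Leaving out 1 pool or array moved 32 of 99 named probes by over 1.5 times, of which 0 were among the 24 leading genes. These 24 were chosen on the same arrays for pools apart, dye-corrected values of 1 sign and low p. That they kept their signs and sizes follows largely from this choice and is no sign of stability.

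The values after a change of sign were as follows. Without centring and with Gapdh centring, in that order, Lef1 was at 0.07 and 0.10, Fgfr2 at 0.02 and 0.05, Fgfr1 at 0.02 and 0.06, Pmel at 0.06 and 0.10, Mitf at 0.06 and 0.10, Tyrp1 at 0.12 and 0.15, Ccnd1 at 0.02 and 0.05, Eomes at 0.07 and 0.10, Reln at 0.10 and 0.13, the Gnaq probe at -0.01 at 0.11 and 0.14, and the lower Pax6 probe at 0.12 and 0.15. With Gapdh centring alone Axin2 was at 0.02, Fgf17 at 0.03 and Zcchc12 at 0.01. From the other 12 arrays Fgfr3 was at 0.10, Axin2 at 0.06, Nhlh2 at 0.63, Rpl7l1 at -0.01, Mitf at 0.01, Tyrp1 at 0.01, Igkv13-82 at 0.49, Fgf17 at 0.00, that Gnaq probe at 0.56, that Pax6 probe at 0.02 and the other Reln probe at -0.06. From all 18 arrays Tyrp1 was at 0.00, Hao1 at 0.13, that Gnaq probe at 0.18 and that Pax6 probe at 0.01. With 1 pool or array left out the ranges that crossed 0 were -0.18 to 0.04 for Ccnd1, -0.19 to 0.05 for Eomes, -0.68 to 0.14 for Hao1, -0.16 to 0.07 for Mitf, -0.14 to 0.00 for Pmel, -0.09 to 0.08 for Tyrp1, -0.06 to 0.03 and -0.06 to 0.17 for the Reln probes, -0.03 to 0.16 for Rpl7l1, -0.04 to 0.22 for Tbr1, -0.18 to 0.14 for that Gnaq probe and -0.05 to 0.04 for that Pax6 probe. The cause of these changes was not tested.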
